A study of Mus musculus with 6 samples.

Results

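Described here are 10 genes of the nuclear speckle, among them kinases and cyclins that carry the same kind of arginine- and serine-rich (RS) stretch: Son, Srrm1, Srrm2, Pnn, Tra2a, Tra2b, Ccnl1, Ccnl2, Cdk12 and Cdk13. They were found by symbol, and all 10 were among the 13932 genes of the count table. Their introns gave 194 of the 151811 rows of the junction table, each row an intron with the number of reads that span it. The genes were chosen by their gene name after gene levels and junction use of the same S34F and WT libraries had been seen, so every difference between genotypes below is a description and supports nothing beyond itself.

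The cells were common myeloid progenitors of mouse bone marrow, sorted as lineage-negative, c-Kit+, Sca-1-, CD34+ and Fcgamma-. The donor marrow carried a U2AF1 transgene under control of rtTA, a transactivator that works only with doxycycline. The transgene was either the S34F form, U2AF1(S34F)/rtTA, or the unmutated form, U2AF1(WT)/rtTA. The marrow was transplanted, more than 6 weeks passed, and all mice, WT ones included, then ate doxycycline chow for 5 days. There were 3 libraries of each genotype, and each was a pool from 4 to 5 mice, so single animals cannot be compared. Genotypes come from the sample titles and the column names, because the genotype entry of the labels read S34F for all 6 samples.

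Nuclear speckles are bodies in the nucleus where splicing factors gather. Son and Srrm2 are large RS proteins that hold the speckle together, while Srrm1, Pnn, Tra2a and Tra2b act in exon recognition or in the complex left on spliced mRNA. Cyclins L1 and L2 (Ccnl1, Ccnl2) bind the kinase CDK11 and reside in speckles, and Cdk12 and Cdk13 pair with cyclin K and phosphorylate the tail of RNA polymerase II. Several of these genes limit their own output by an exon with an early stop codon, often called a poison exon, whose inclusion sends the mRNA to nonsense-mediated decay. U2AF1 is the U2AF subunit that contacts the AG at the end of an intron (the acceptor), and the S34F mutant is known to lower the use of acceptors with T just before the AG.

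The acceptors on which the results below turn are shown first, read from the mouse genome build mm9 (NCBIM37), 5′ to 3′ on the strand of the gene. Each stretch opens with 22 intron bases. The capitals mark the base before AG together with the AG, at every acceptor in the stretch.

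Son exon 2: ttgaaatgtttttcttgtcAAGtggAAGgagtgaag
Son exon at 91671594: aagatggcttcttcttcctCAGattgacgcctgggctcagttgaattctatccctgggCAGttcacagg
Son exon at 91672193: ttcctgtccttgtcctcttTAGtgcctgca
Ccnl2 exon at 155187568: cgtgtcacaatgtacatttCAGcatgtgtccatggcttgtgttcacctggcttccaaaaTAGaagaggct
Ccnl2 exon at 155192979: tgttttaaaaaaaattgtaTAGaaagatat
Cdk12 exon at 98110997: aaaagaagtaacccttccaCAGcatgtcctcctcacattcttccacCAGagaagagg
Cdk12 exon at 98124784: agcttcttatttttctttgCAGatagcagc
Tra2a tandem acceptors: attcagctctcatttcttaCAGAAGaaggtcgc

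The stretches lie at chr16:91651853-91651888, chr16:91671572-91671640 and chr16:91672171-91672200 for Son (plus strand), at chr4:155187546-155187615 and chr4:155192957-155192986 for Ccnl2 (plus strand), at chr11:98110975-98111031 and chr11:98124762-98124791 for Cdk12 (plus strand) and at chr6:49194924-49194956 for Tra2a (minus strand). In 5 of them a second acceptor follows the first within the exon: 6 nt downstream in Son exon 2, 39 nt downstream in the later Son exon, 40 nt in Ccnl2, 27 nt in Cdk12 and 3 nt in Tra2a. All of these distances but the 40 nt of Ccnl2 are multiples of 3.

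A further set shows the exons of Ccnl2, Ccnl1 and Tra2b that carry an annotated early stop codon, an unannotated exon of Tra2a whose acceptor resembles that of Tra2b, and a small exon of Cdk13. Here the capitals mark the same bases before the exon and, at the right end, the stop codon as annotated (Ccnl2, Ccnl1, Tra2b) or the first 2 bases of the next intron (Cdk13). The Tra2a stretch has no annotated stop codon and ends 8 bases into the exon.

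Ccnl2 stop codon exon: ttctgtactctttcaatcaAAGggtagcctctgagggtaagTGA
Ccnl1 stop codon exon: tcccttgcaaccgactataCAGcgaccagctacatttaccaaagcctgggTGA
Tra2b stop codon exon: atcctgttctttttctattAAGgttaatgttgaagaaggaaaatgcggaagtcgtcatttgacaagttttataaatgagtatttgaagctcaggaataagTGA
Tra2a exon: taaatgttctttttccattAAGgttaatgt
Cdk13 48-nt exon: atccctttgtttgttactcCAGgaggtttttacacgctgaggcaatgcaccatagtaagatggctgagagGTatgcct

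These are chr4:155192626-155192669 (plus strand), chr3:65759168-65759220, chr16:22259254-22259356, chr6:49203100-49203129 and chr13:17814972-17815049 (the last 4 on the minus strand). The stop codon starts at exon base 20 in Ccnl2, 29 in Ccnl1 and 79 in Tra2b. The first 30 bases of the Tra2b and Tra2a stretches were the same at 25 positions (83.3%), with 14 in a row around the acceptor.

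Before the results, 4 properties of the libraries bear on them. Gene counts totalled 46827909 to 51862032 in the S34F libraries and 54727541 to 94562984 in the WT libraries, and the mitochondrially encoded genes took 2.44 to 2.77% against 1.27 to 2.04% of them. Both replicate 1 libraries held reads of the Y-linked gene Ddx3y (5714 in the S34F library, 5580 in the WT library), and the other 4 held none. WT replicate 1 stood nearer to the S34F libraries than to the other WT libraries for several genes below, so values without it are given where they differ. Of the markers fixed for the sort, Kit and Cd34 summed to 844 to 1060 CPM (the reads of a gene scaled to a common library size) over all 6 libraries. Those that the gate should keep low were Ly6a (Sca-1), at 1.08 to 1.84 CPM, and Fcgr3 (an Fcgamma receptor), at 33.4 to 111 CPM. Summed dendritic cell markers were lower in S34F, at 51.0 to 105 CPM against 176 to 374 CPM, with 7 of 8 lower. Of the 8, DESeq2 called 6 (0.689% of all genes) and edgeR 0 (0.0% of all genes) at an adjusted p of 0.05. The summed markers of erythroid cells (3 of 5 measured) were 11.0 to 14.8 against 15.7 to 27.3 CPM, those of megakaryocytes (3 of 4) 74.1 to 105 against 116 to 157 CPM, those of neutrophils (5 of 5) 343 to 430 against 243 to 393 CPM, and those of B cells (4 of 5) 22.1 to 25.5 against 22.6 to 27.7 CPM. The single T and NK cell marker measured, Klrb1c, was at 0.536 to 3.86 CPM. The part of these other cells in the results was not tested, and in bulk libraries fewer cells of a type and less RNA per cell cannot be told apart.

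By the GENCODE M1 models on mm9, the speckle genes lie at chr16:91647751-91679466 (Son, plus strand), chr4:134876399-134909236 (Srrm1, minus), chr17:23940154-23961706 (Srrm2, plus) and chr12:60167906-60175004 (Pnn, plus), and the Tra2 genes at chr6:49193920-49214051 (Tra2a, minus) and chr16:22244622-22266078 (Tra2b, minus). The cyclins lie at chr3:65750073-65762171 (Ccnl1, minus) and chr4:155186598-155198652 (Ccnl2, plus), and the kinases at chr11:98064373-98139818 (Cdk12, plus) and chr13:17807796-17896931 (Cdk13, minus). All 10 genes were well measured, with 2894 to 87336 reads per library. Levels per length, from the FPKM values that the authors deposited, placed Ccnl1 first (mean over 6 libraries 76.1, range 50.9 to 93.2), followed by Son (70.7, 52.2 to 92.6) and Tra2b (66.6, 52.0 to 79.6). The ranges of these 3 overlap widely. Ccnl2 followed at 33.3 FPKM (25.1 to 44.3) and Tra2a at 25.9 (19.3 to 33.0), again with overlapping ranges. Srrm2 was at 17.6 FPKM (12.1 to 23.2), Pnn at 12.1 (6.75 to 17.1), Srrm1 at 11.3 (8.29 to 14.7), Cdk12 at 10.7 (8.75 to 12.1) and Cdk13 at 8.61 (6.50 to 9.79). The last 4 cannot be put in order beyond their spread. Each member of the pairs Ccnl1 and Ccnl2, and Tra2b and Tra2a, was thus separated from its relative, the lowest library of the more abundant gene lying above the highest library of the other.

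None of the 10 gene levels passed edgeR's quasi-likelihood test at an adjusted p of 0.05. Over all 13905 genes tested the share called was 0.0% (9.1% had an unadjusted p under 0.05, which Pnn alone had among the 10), and DESeq2 called 0 of the 10 against 0.689% of all genes. The log2 fold change from counts was positive in 7 and negative in 3, with a median of 0.19 against -0.01 over all genes. By the deposited FPKM fewer of the genes were higher in S34F, as given below with Son. By CPM, in none of the 10 did the S34F libraries lie wholly above or wholly below the WT libraries, where 7.16% of all genes lay wholly above and 8.47% wholly below.

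Of the speckle scaffold genes, Son was the steadiest by CPM. Son was at 919, 926 and 939 CPM in the S34F libraries and 989, 899 and 930 CPM in the WT libraries. The log2 fold change was -0.02 with a standard error of 0.09 (edgeR adjusted p = 0.957). The deposited FPKM differed from this, at 62.2, 52.2 and 66.9 in S34F and 77.8, 72.6 and 92.6 in WT, every S34F library being lower. The last 1954 bases of Son overlap Donson on the opposite strand, and whether the counting used the strand is not given in the sources used here. Srrm2, its partner in the speckle core, measured 400, 338 and 358 CPM in the S34F libraries, and 441, 220 and 295 CPM in the WT libraries. Its highest and its lowest value were thus both WT libraries, and the log2 fold change was 0.20 (standard error 0.23, edgeR adjusted p = 0.766), or 0.50 without WT replicate 1 and -0.01 without WT replicate 2.

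Srrm1, a splicing coactivator that joins exon-bound factors to the spliceosome, measured 77.0, 62.4 and 69.3 CPM in the S34F libraries, and 75.2, 43.4 and 51.6 CPM in the WT libraries. WT replicate 1 lay within the S34F values and the other 2 WT libraries below all of them. The log2 fold change was 0.29 (standard error 0.20, edgeR adjusted p = 0.633), and 0.55 with an adjusted p of 0.0434 without WT replicate 1. Without WT replicate 2 it was 0.13.

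Pnn (pinin), which binds Rnps1 and Sap18 in a complex that joins speckles and spliced mRNA, showed the largest difference of the 10. It was at 170, 124 and 151 CPM in S34F (mean 148 ± 23.3, SD, n = 3) and 132, 60.0 and 51.6 CPM in WT (81.1 ± 44.0). WT replicates 2 and 3 were below every S34F library, and WT replicate 1 was above S34F replicate 2. The log2 fold change was 0.87 with a standard error of 0.34 (edgeR adjusted p = 0.548; DESeq2 adjusted p = 0.232). Without WT replicate 1 it was 1.41 (edgeR adjusted p = 0.00746), and without both replicate 1 libraries 1.30 (adjusted p = 0.0214), where Pnn was the only one of the 10 called against 4.3% of all genes. Pnn and Srrm1 were the 2 of 10 genes called without WT replicate 1, a setting in which 8.42% of all genes were called. Of its partners, the mean of Rnps1 was 147 ± 11.2 CPM (SD, S34F) and 154 ± 13.7 CPM (WT), and that of Sap18 69.7 ± 2.63 and 78.0 ± 11.7 CPM, with log2 fold changes of -0.06 and -0.16.

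Tra2a and Tra2b bind purine-rich enhancers in exons and promote their inclusion. Tra2b measured 396, 275 and 292 CPM in the S34F libraries, and 293, 245 and 232 CPM in the WT libraries, and Tra2a 156, 95.5 and 108 CPM in the S34F libraries, and 122, 87.2 and 77.4 CPM in the WT libraries. In both genes replicate 1 was the highest library of its genotype, and the groups overlapped. The log2 fold change was 0.32 for each (edgeR adjusted p = 0.569 for Tra2b and 0.638 for Tra2a), and replicate 1 moved it in either direction. Without S34F replicate 1 it was 0.14 for Tra2b and 0.09 for Tra2a, without WT replicate 1 it was 0.43 and 0.54, and without both it was 0.25 and 0.30. Without WT replicate 3 it was 0.19 for Tra2a.

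The cyclins L did not differ in level beyond the spread. Ccnl1 measured 362, 247 and 260 CPM in the S34F libraries, and 331, 272 and 267 CPM in the WT libraries, both replicate 1 libraries again being the highest. Ccnl2 measured 175, 178 and 190 CPM in the S34F libraries, and 166, 187 and 191 CPM in the WT libraries. Both log2 fold changes were 0.00 to 2 decimals, with standard errors of 0.17 for Ccnl1 and 0.10 for Ccnl2. Their kinase partner Cdk11b had means of 41.5 ± 3.00 CPM (SD, S34F) and 47.3 ± 1.78 CPM (WT), the S34F libraries all lying below the WT libraries (log2 fold change -0.19, edgeR adjusted p = 0.578).

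Cdk12 measured 141, 137 and 126 CPM in the S34F libraries, and 131, 116 and 107 CPM in the WT libraries, and Cdk13 148, 132 and 139 CPM in the S34F libraries, and 142, 123 and 116 CPM in the WT libraries. The WT libraries reached higher than the lowest S34F library in both kinases, and the log2 fold changes were 0.19 and 0.14 (edgeR adjusted p = 0.591 and 0.664). Leaving out each library in turn gave 0.12 (without WT replicate 3) to 0.27 (without WT replicate 1) for Cdk12 and 0.08 to 0.23, without the same libraries, for Cdk13. Cyclin K (Ccnk), the partner of both, had means of 9.42 ± 1.15 CPM (SD, S34F) and 8.83 ± 2.00 CPM (WT).

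**Figure D1:**
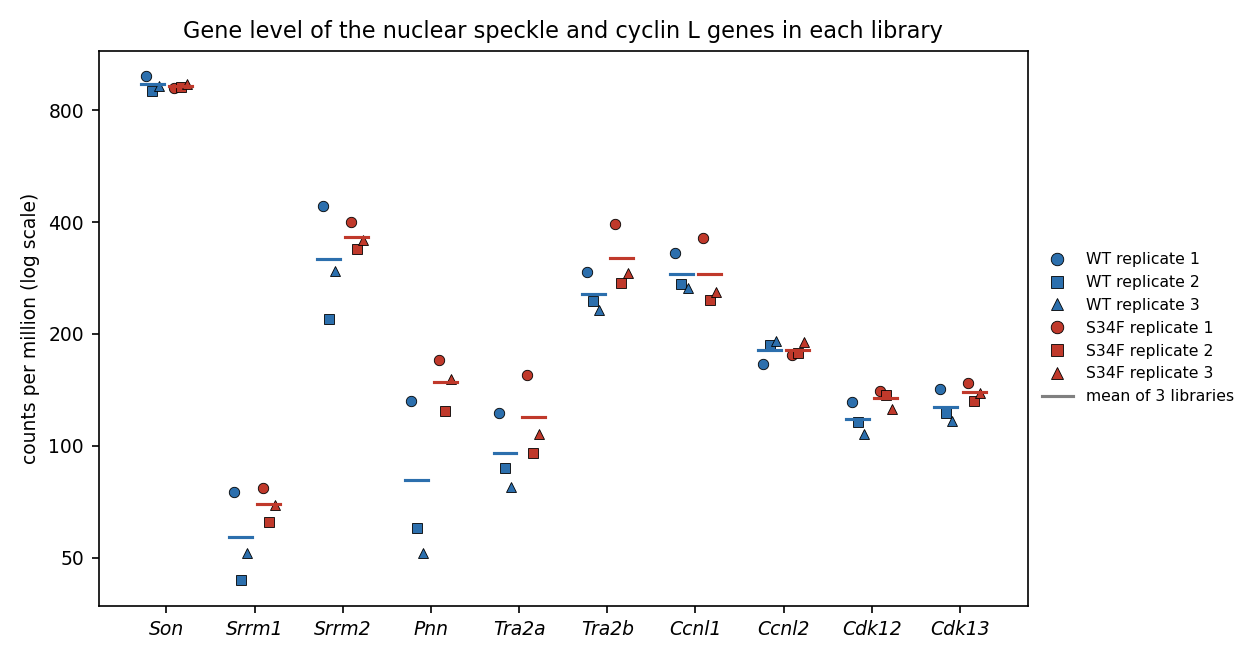
CPM (log axis) of the 10 genes in each of the 3 WT and 3 S34F libraries; bars are group means. The S34F and WT points overlap in every gene, and for Pnn, Srrm1 and Srrm2 WT replicate 1 (blue circle) lies nearer to the S34F points than to the other WT points.

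Other genes of the same processes gave no call either. Of 32 listed genes of nuclear speckles and RS proteins, 29 were measured: 0 were called by edgeR, 21 had a positive and 8 a negative log2 fold change, and the median was 0.14. The 4 of lowest p were Ppig (peptidyl-prolyl isomerase with an RS tail; log2 fold change 0.35), Rbm25 (an RNA-binding protein of speckles; 0.70), Luc7l3 (0.21) and the U1 protein Snrnp70 (0.56). Rbm25 measured 295, 248 and 263 CPM in the S34F libraries, and 229, 142 and 126 CPM in the WT libraries, with no overlap, and like Pnn its WT replicate 1 was the highest WT library. Without WT replicate 1, 5 of the 29 passed (Rbm25, Snrnp70, Nktr, Scaf4 and Scaf1), all higher in S34F, a setting in which 8.42% of all genes were called. The speckle RNA Malat1, picked out after its values were seen, measured 3215, 1882 and 2815 CPM in the S34F libraries, and 3176, 1454 and 1428 CPM in the WT libraries, with replicate 1 again the highest library of either genotype.

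Of the kinases and cyclins of transcription, all 13 listed were measured, with 0 called, 4 positive and 9 negative log2 fold changes and a median of -0.08. The lowest p belonged to Ccnt1, the cyclin of CDK9 (log2 fold change 0.38), Mnat1, the assembly factor of the CDK7 kinase (-0.27), Cdk11b and Ccnc (-0.28). Without WT replicate 1, Ccnt1 (0.58) and Mnat1 (-0.40) passed, 2 of 13 where 8.42% of all genes did. Of 14 DNA repair genes whose expression is known to need Cdk12, 13 were measured, with 0 called, 11 positive and 2 negative log2 fold changes and a median of 0.10. The lowest p belonged to Brca2 (0.63), Wrn (-0.22), Blm (0.26) and Bard1 (0.25), and without WT replicate 1 Brca2 alone passed (0.98), 1 of 13 against the same 8.42%.

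The junction rows show how much these genes splice outside the annotation. Of the 194 junctions, 148 were annotated introns, 6 joined 2 known sites in a new pair and 40 used a site not in the authors' annotation. Pnn had 8 junctions, all annotated, and so had no alternative to test, and Srrm1 had 23 annotated of 24. Srrm2 was the most varied, with 10 junctions to new sites among 25.

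By reads, Tra2a stood out. Junctions outside the annotation took 8.94, 10.3 and 9.19% of Tra2a junction reads in S34F and 9.92, 10.6 and 8.92% in WT, and of Cdk13 they took 5.02 to 5.45% in S34F and 4.35 to 4.97% in WT. For all genes together the share was 0.754 to 0.803% in the 6 libraries. In Tra2a the genotypes overlapped, and in Cdk13 the S34F libraries all lay above the WT libraries, by as little as 5.02 against 4.97%. In Ccnl2 the order was the reverse, 0.303, 0.608 and 0.742% in S34F against 0.814, 1.64 and 1.44% in WT. The reads of the Ccnl2 TAG sites described below enter this share, so it is not a separate observation. How many of all genes lie apart in this way is not given here.

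Acceptor choice was compared by setting the reads of each acceptor against those of the other acceptors of the same donor (the first site of an intron). In the 10 genes, 68 of 78 such choices had 20 reads or more in every library and at least 1% use, and they fell in 9 genes. edgeR called 0 of the 68 (0.0% of all 29709 choices), 9 had an unadjusted p under 0.05 against 7.5% of all choices, and DESeq2 called 6 against 1.31%. The S34F libraries lay wholly apart from the WT libraries in 22 of the 68, against 17.0% of all choices: above in 10 (8.49% of all choices) and below in 12 (8.56%). The forms of a site share reads, so a choice between 2 acceptors counts 2 times.

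Son held the clearest of these differences. The site 6 nt inside exon 2, which would drop 6 coding bases, had 0, 0 and 2 reads in the S34F libraries and 47, 75 and 91 reads in the WT libraries, of 1080 to 2978 reads of the donor at 91648229. Its share was 0, 0 and 0.166% in S34F and 3.04, 3.89 and 3.06% in WT. Each WT library was thus far above each S34F library, and 0 reads allow a share of up to 0.234% in S34F replicate 1 and 0.278% in S34F replicate 2. Over the 3 libraries of each genotype the share was 58.9 times higher in WT, with a 95% interval of 16.1 to 490 that covers counting error only (edgeR adjusted p = 0.434; DESeq2 adjusted p = 0.00264). Both acceptors of this exon have A before AG.

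A second site in Son went the other way, with an exception. The acceptor 39 nt inside the exon at 91671594 had 55, 2 and 54 reads in S34F (6.75, 0.324 and 6.88% of the donor at 91670819) and 0 reads of 895, 1040 and 1698 in WT. S34F replicate 2 was near the WT libraries, whose 0 reads allow shares of up to 0.335, 0.288 and 0.177%. Against a floor of 3 reads over the WT group (0.0826%), the share over the summed S34F reads (5.01%) was at least 60.6-fold higher. This limit covers counting error only. It does not hold for S34F replicate 2, whose 0.324% was below the 0.335% allowed in WT replicate 1. The log2 ratio of use was 8.27 with a standard error of 2.08 (edgeR adjusted p = 0.575, DESeq2 adjusted p = 0.00731). The junction to the inner site was the only one of the 194 with 0 reads in all libraries of a genotype (0.515%). Of all junctions, 0.234% had 0 reads in all WT libraries and 0.37% in all S34F libraries. Both the main and the inner acceptor have C before AG.

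The third was the exon at 91672193, which lies in processed transcripts and decay targets of Son outside the coding sequence and whose acceptor is TAG. From the donor at 91671710 it took 1.07, 1.68 and 2.50% of the reads in S34F (8, 11 and 17 reads) and 6.02, 4.83 and 5.87% in WT (45, 52 and 92 reads). All S34F libraries were below all WT libraries, and the log2 ratio of its use was -1.77 with a standard error of 0.39 (edgeR adjusted p = 0.473; DESeq2 adjusted p = 0.0499). The 80-nt exon at 91674940, found in Son transcripts annotated for nonsense-mediated decay, was included at 12.2, 18.4 and 15.6% in S34F and 17.8, 14.6 and 16.2% in WT. The groups overlapped there.

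In Ccnl2 differences lay at several acceptors of the gene. The inner TAG site 40 nt into the exon at 155187568, which would shift the reading frame, had 0, 0 and 2 reads in S34F and 4, 30 and 49 in WT, or 0, 0 and 0.41% against 0.839, 4.53 and 5.10%. WT replicate 1 was closer to S34F than to the other WT libraries, though still above it. Over the libraries of each genotype the share was 25.9 times higher in WT (95% interval 6.94 to 217, counting error only; edgeR adjusted p = 0.562; DESeq2 adjusted p = 0.096).

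Further on, the donor at 155192096 was joined mainly to 3 acceptors: the exon at 155192648 that holds a stop codon (AAG), the unannotated exon at 155192979 (TAG) and the exon at 155194438 (CAG). The TAG exon had 0, 0 and 1 reads in S34F and 23, 57 and 42 reads in WT, or 0, 0 and 0.327% against 5.42, 9.33 and 5.27% of the donor. Every WT library was above every S34F library, and over each genotype the share was 67.7 times higher in WT (95% interval 11.9 to 2697, counting error only; edgeR adjusted p = 0.434; DESeq2 adjusted p = 0.00239). Counted as an exon of 131 nt, it was included at 0, 0.617 and 3.45% in S34F and 5.72, 9.79 and 4.48% in WT. Its downstream junction, which enters this measure, had 0, 2 and 9 reads in S34F and 2, 14 and 0 reads in WT, so the low upstream reads of S34F were not matched by a like difference downstream.

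By its acceptor, the stop codon exon of Ccnl2 took a larger share in each S34F library than in any WT library. Its acceptor took 59.4, 51.7 and 51.6% of the reads of that donor in S34F and 46.0, 35.5 and 38.5% in WT. As a cassette exon of 126 nt it was included at 44.9, 38.5 and 38.7% in S34F and 35.4, 28.0 and 25.5% in WT, a mean of 40.7 ± 3.62% against 29.6 ± 5.16% (SD, n = 3). Its 2 inclusion junctions were uneven: the upstream one had 218, 178 and 158 reads in S34F and 195, 217 and 307 in WT, and the downstream one 25, 24 and 19 in S34F and 31, 37 and 0 in WT. The lowest inclusion, that of WT replicate 3, thus averages in a junction with 0 reads. The groups did not overlap in either measure, and the upstream junction enters both. The skipping junction had 149, 161 and 140 reads in S34F and 206, 327 and 448 in WT. Set against these, the downstream junction alone gave shares that overlapped between genotypes. The log2 ratio of inclusion was 0.72 with a standard error of 0.33 (edgeR adjusted p = 0.492, DESeq2 adjusted p = 0.398). The gene level of Ccnl2 was nearly the same in both genotypes, as given above.

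**Figure D2:**
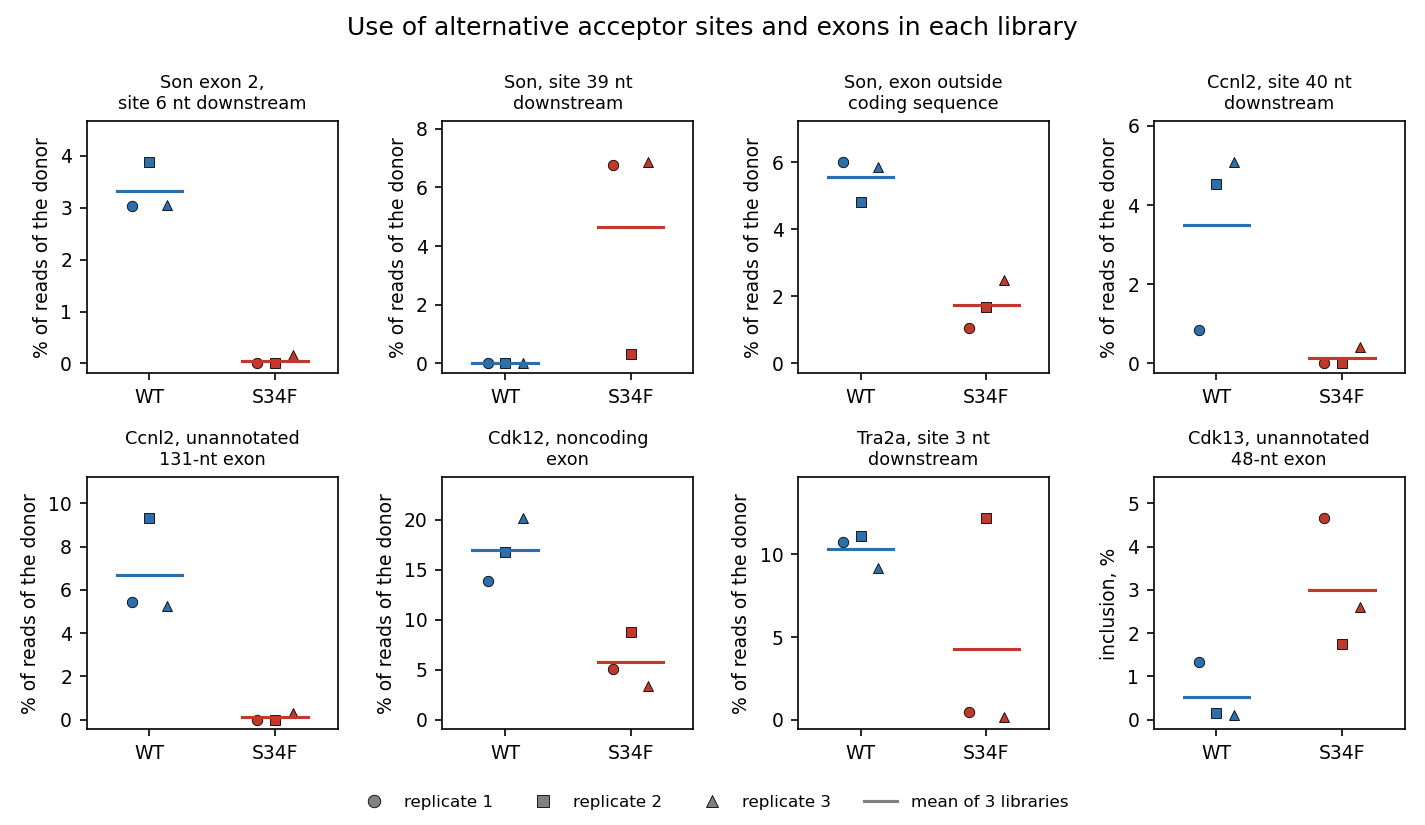
Share of the reads of a donor that went to an alternative acceptor, or inclusion for Cdk13, in percent, per library; bars are group means and each panel has its own axis. WT points lie above S34F points in Son exon 2, in the Son exon outside the coding sequence, in both Ccnl2 panels and in Cdk12, S34F points above WT points in the Son site 39 nt downstream and in Cdk13, and S34F replicate 2 (square) lies with WT in Tra2a and near WT in the Son site 39 nt downstream.

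The Cdk12 difference of lowest p lay at the end of the gene. The donor at 98106983 leads to the last coding exon, through an acceptor at 98110997 or 27 nt further in, or to a distant exon at 98124784 that belongs to a noncoding transcript. The distant exon took 5.04, 8.78 and 3.36% of the reads in S34F and 13.8, 16.8 and 20.2% in WT, on 119 to 243 reads per library. All S34F libraries were below all WT libraries, with a log2 ratio of -1.77 (standard error 0.56; edgeR adjusted p = 0.608; DESeq2 adjusted p = 0.171). Its acceptor is CAG, as are both acceptors of the last coding exon, which took 42.9, 40.5 and 45.4% against 40.3, 29.9 and 22.2% for the outer one and 52.1, 50.7 and 51.3% against 45.9, 53.3 and 57.6% for the inner one. The same reads, counted as the 391-nt stretch of the last exon that is spliced onward to the distant exon, gave an inclusion of 88.5, 79.2 and 91.7% in S34F and 68.8, 69.3 and 67.2% in WT. The other 3 forms of this exon, with the other acceptor or a later donor, also did not overlap between genotypes and share most of these reads.

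Cdk13 holds a 48-nt exon at 17814980 to 17815027 that is in no annotated transcript, and 48 is a multiple of 3. It was included at 4.67, 1.75 and 2.60% in S34F and 1.33, 0.155 and 0.106% in WT, on 296 to 472 reads per library. Few of these were inclusion reads: 28, 11 and 15 in S34F and 9, 1 and 1 in WT. By the mean of both inclusion junctions the S34F libraries were all higher, S34F replicate 2 and WT replicate 1 lying closest together. The log2 ratio was 2.65 with a standard error of 0.86 (edgeR adjusted p = 0.351, DESeq2 adjusted p = 0.0782). Without WT replicate 1 it was 4.32, with 1 inclusion read in each remaining WT library. The upstream junction had 10, 5 and 7 reads in S34F and 6, 1 and 0 in WT. By this junction alone, set against skipping, S34F replicate 2 lay below WT replicate 1, so the genotypes overlapped. The acceptor of this exon is CAG.

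In Tra2a, 1 library decided the difference. The inner of the tandem acceptors, 3 nt downstream, took 0.469, 12.2 and 0.182% of the reads of its donor in S34F and 10.7, 11.1 and 9.18% in WT, on 549 to 852 reads per library. S34F replicate 2 lay above all WT libraries and the other 2 S34F libraries far below them. The log2 ratio was -2.83 with a standard error of 1.46 (edgeR adjusted p = 0.699), and -5.03 without S34F replicate 2 (adjusted p = 0.667). S34F replicate 2 was also the S34F library near WT for the Son site 39 nt downstream, whereas at Son exon 2 and at the Ccnl2 exon at 155192979 it was as low as the other S34F libraries.

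The remaining genes had smaller or overlapping differences. In Ccnl1 the acceptor choice of lowest p, at 65752712, took 92.8, 92.4 and 91.9% in S34F and 89.0, 89.5 and 89.5% in WT (log2 ratio 0.53, edgeR adjusted p = 0.715). In Srrm1 the acceptor at 134898398 took 12.0, 6.19 and 9.60% in S34F and 8.66, 3.85 and 0% in WT, with overlap, on 78 to 170 reads, a log2 ratio of 1.55 (2.81 without WT replicate 1). The 0 reads in WT replicate 3 allow a share of up to 1.76%, by counting error only. That library, the deepest, also had 0 reads at other junctions that the remaining WT libraries held. Examples are Ccnl2 155192067 to 155197669 (17, 22 and 0 reads in WT) and Tra2b 22259059 to 22258301 (22, 19 and 0). Why was not tested, and limits and intervals from read counts do not cover junctions missed in a library for another reason.

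Donor choice was compared in the same way, for introns that share an acceptor. Of 67 choices in the 10 genes 55 could be tested; edgeR called 0 (0.00997% of all 30084 choices), 4 had an unadjusted p under 0.05 against 6.41% of all, DESeq2 called 0 against 0.804%, and 8 did not overlap between genotypes against 14.8%, 4 of them higher (7.48% of all) and 4 lower (7.37%) in S34F. The 4 of low p were the Cdk12 junction and both forms of the Cdk13 junction, seen from the acceptor, and an Srrm2 junction. In Srrm2 the acceptor at 23943899 was also joined to a donor at 23929478, which lies 10676 bases upstream of the annotated start of Srrm2 and inside the long noncoding RNA gene D930048G16Rik on the same strand. It took 6.56, 2.25 and 5.31% of the reads of that acceptor in S34F (12, 4 and 12 reads) and 10.9, 19.7 and 17.6% in WT (29, 38 and 30 reads). All S34F libraries were below all WT libraries (log2 ratio -1.96, standard error 0.60, edgeR adjusted p = 0.698). In Tra2b the donor of lowest p, at 22258938, took 3.41, 1.86 and 5.35% in S34F and 4.36, 5.53 and 5.07% in WT, with overlap.

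Cassette exons were tested as the reads of both inclusion junctions against the skipping junction. Of 29 in the 10 genes 26 could be tested; edgeR called 0 (0.0275% of all 7260), 6 had an unadjusted p under 0.05 against 10.8% of all, DESeq2 called 0 against 1.8%, and 11 did not overlap between genotypes against 19.7%, 8 of them higher (8.06% of all) and 3 lower (11.6%) in S34F. DESeq2 gave no adjusted p for the Cdk12 forms. The 6 of low p were the 4 overlapping Cdk12 forms, the Cdk13 exon and the 131-nt Ccnl2 exon described above.

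Exons of this kind in Tra2b, Tra2a and Ccnl1 were included in all libraries. The 276-nt exon of Tra2b, by which Tra2 proteins are known to limit their own amount, was included at 18.7, 12.5 and 17.9% in S34F and 21.2, 12.8 and 14.7% in WT (means 16.4 ± 3.35% and 16.2 ± 4.39%, SD, n = 3). The 312-nt exon of Tra2a, in no annotated transcript and so with no annotated stop codon, has the similar acceptor shown above, and it was included at 31.7, 34.8 and 35.8% in S34F and 33.3, 29.2 and 29.1% in WT. The 73-nt exon of Ccnl1 was included at 43.4, 43.7 and 47.7% in S34F and 50.5, 49.4 and 42.5% in WT. As in Ccnl2, the inclusion junctions of these exons were uneven, with more reads upstream in every library. In S34F replicate 1 they had 322 upstream and 131 downstream reads in Tra2b, 321 and 82 in Tra2a, and 535 and 154 in Ccnl1. The genotypes overlapped in all 3, and the log2 ratios were 0.03, 0.24 and -0.15 with standard errors of 0.30, 0.24 and 0.22. By the mean of both inclusion junctions, Ccnl2 was thus the gene among these 4 whose exon did not overlap between genotypes. By its downstream junction alone the genotypes overlapped in Ccnl2 as well. Whether Ccnl2 differed from the other 3 was not tested.

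The cassette exons with most reads in the other speckle genes overlapped too. A 271-nt exon of Srrm2 that holds an annotated start codon was included at 95.7, 89.4 and 88.0% in S34F and 86.1, 91.9 and 84.5% in WT. A 130-nt exon of Srrm1, in no annotated transcript in this form, was included at 10.3, 9.04 and 10.2% in S34F and 12.8, 10.8 and 7.91% in WT.

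**Figure D3:**
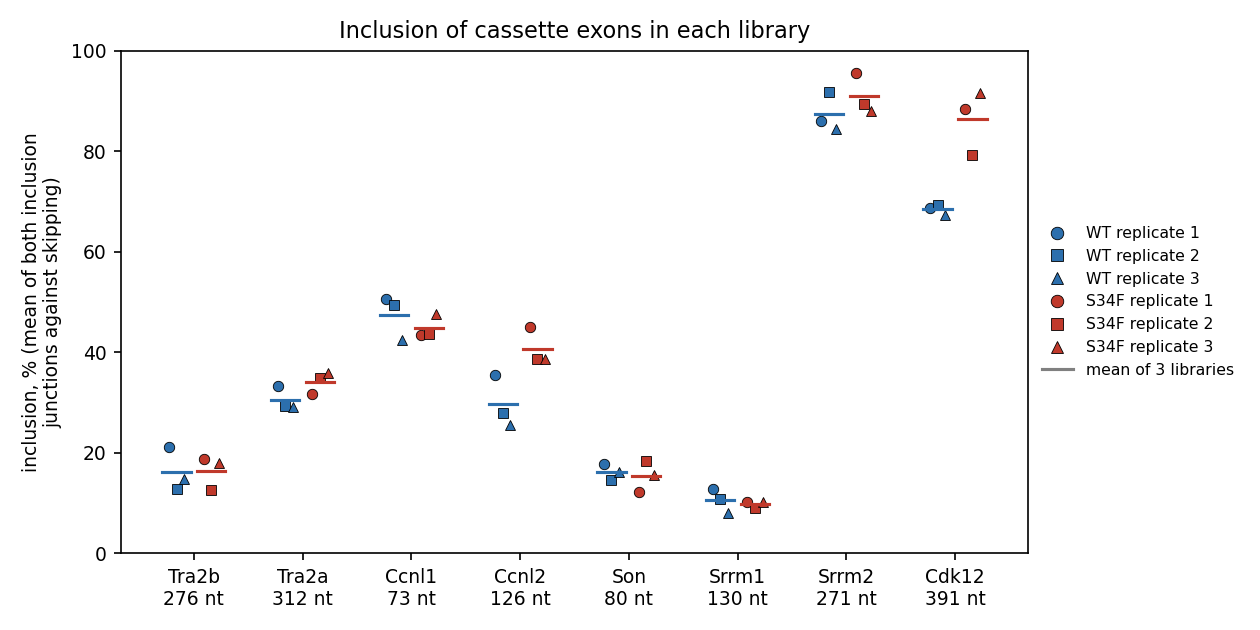
Inclusion in percent of 8 cassette exons in each library; bars are group means. The S34F and WT points overlap for Tra2b, Tra2a, Ccnl1, Son, Srrm1 and Srrm2, and the S34F points lie above the WT points for Ccnl2 (38.5 to 44.9% against 25.5 to 35.4%) and Cdk12 (79.2 to 91.7% against 67.2 to 69.3%). For Cdk12 the upstream junction also counts transcripts that end in this exon.

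The 68 acceptor choices were last sorted by the base before AG, at intron position -3, which the U2AF1 subunit is known to contact. There were 11 with A, 35 with C, 22 with T and 0 with G. The median log2 ratio of use, S34F against WT, was 0.09 for A, 0.15 for C and -0.34 for T, and over all choices tested it was 0.26, 0.10 and -0.28. Of the 22 T acceptors of the 10 genes 14 had a negative ratio, as had 5734 of 9133 over all genes. The 3 T acceptors with an unadjusted p under 0.05 were the Son exon at 91672193 and both Ccnl2 TAG sites, all lower in S34F. The differences in Son exon 2, at the Son site 39 nt downstream and in Cdk12 were between acceptors that all have A, or all have C, before AG.

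**Figure D4:**
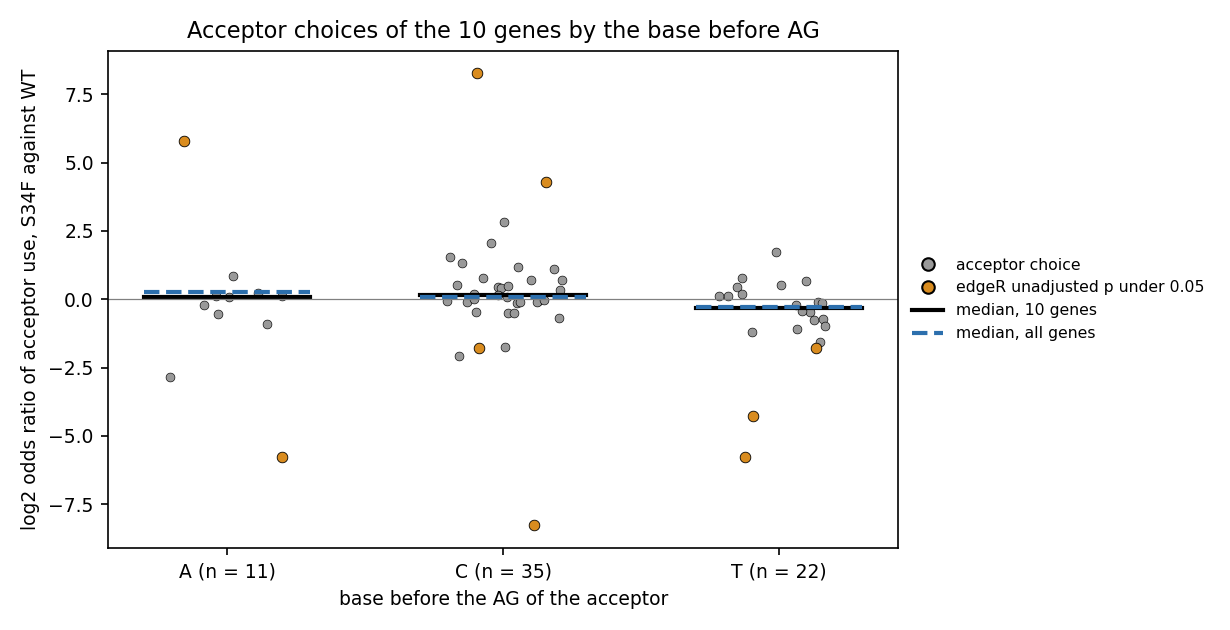
Log2 ratio of acceptor use, S34F against WT, for the 68 acceptor choices of the 10 genes by the base before AG; each point is a choice, solid bars are medians of the 10 genes and dashed bars medians of all choices tested. The medians lie slightly above 0 for A and C and below 0 for T (-0.34 in the 10 genes, -0.28 in all), and the points furthest from 0 occur with each of the 3 bases.

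The authors' deposited table of junction tests listed 4 of the 194 junctions with an adjusted p under 0.05 (2.06%, against 0.340% of all junctions). These were Son 91648229 to 91651881 (log2 fold change -6.04, adjusted p = 1.42e-17), Ccnl2 155192096 to 155192979 (-6.27, adjusted p = 1.96e-08), Son 91670819 to 91671633 (10.04, adjusted p = 0.00132) and Son 91671710 to 91672193 (-1.68, adjusted p = 0.00562). In the authors' deposited gene table none of the 10 genes had an adjusted p under 0.05, the lowest being 0.242 for Pnn with a log2 fold change of 0.52.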

How the data were processed

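RNA of 6 sorted progenitor libraries was depleted of ribosomal RNA and sequenced as strand-specific paired reads of 100 bp, per the labels' protocols. TopHat2 2.0.8, Bowtie2 2.1.0, HTSeq 0.5.4p1, Cufflinks 2.1.1 and DESeq2 1.6.1 appear in the submitters' processing notes with no role, and the build was mm9. The authors deposited raw read counts per gene and per junction. The deposited FPKM values served only to order genes by level and to set beside the CPM. The authors' deposited log2 fold changes and adjusted p-values were quoted only where their table is named. Junction positions are printed as deposited, each being an exon base beside the intron: after a shift of 1 base inward, 191 of 191 GT-AG introns of the 10 genes carried these bases.

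Gene counts were tested with edgeR 4.0.16 in R 4.3.3 (TMM, default expression filter, quasi-likelihood F test, two-sided). For splicing, each event entered as 2 counts per library, with terms for library, for form and for the interaction of form with genotype. The minimum was 20 reads per library for an event and 1% of the reads for each form (2% for cassette exons of 10 to 1000 nt). Inclusion uses the mean of both inclusion junctions. Fits and the Benjamini-Hochberg adjustment ran over the whole tables, with a threshold of 0.05. DESeq2 1.42.0 was the alternative tool, and the functions were tested on simulated data. Ratios with 1 to 3 reads in a group carry exact 95% intervals, and 0 reads a limit of 3 reads, for counting error only. Nothing says whether pools shared donor marrow, so p-values measure the spread between these pools. The annotation was GENCODE M1. Exact sequences were read with pysam 0.24.0.

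The 10 genes and the lists were chosen with earlier results of these data known. Named were all 10 genes, every event with a DESeq2 adjusted p or an edgeR unadjusted p under 0.05, per gene the event of lowest p and the cassette exon with most reads, and of each list the 4 genes of lowest p with Cdk11b, Ccnk, Rnps1 and Sap18.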

Additional observations from a re-analysis of the deposited data

How the results depend on the processing

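Of the 10 gene levels, edgeR called 0 with all libraries, and 0 to 2 when each library was left out in turn. The 2 were Pnn and Srrm1 without WT replicate 1, and without both replicate 1 libraries 1 was called (Pnn). RLE size factors, no filter on low counts and DESeq2 gave 0. Of the 68 acceptor choices DESeq2 called 6, in Son and Ccnl2, and edgeR 0 under every other setting tried (10 or 50 reads in every library, a 5% share, each library left out, both replicate 1 libraries left out). Donor choices and cassette exons gave 0 under every setting with either tool. The labels do not say whether the replicate numbers of the titles pair the samples, and the values do not settle it. Both replicate 1 libraries, and no others, held Ddx3y reads, as given above. The deviations of same-numbered libraries correlated at 0.27, 0.34 and 0.04. S34F replicates 1 and 2 each correlated best with the WT library of the same number, and S34F replicate 3 with WT replicate 1 (0.14). A replicate block in edgeR left 0 of the gene levels called (5 of all 13905 genes), 0 of the acceptor choices, 0 of the donor choices and 0 of the cassette exons. DESeq2 with that block, chosen after seeing the data, called 1 gene level (Pnn) and 5 acceptor choices. It called 440 of the 13121 genes with an adjusted p. Its share over all acceptor choices is not given here, so the 5 are not set apart from other genes. No value of a named gene or event reversed while called. Of 496 such values under other settings 22 moved by more than a standard error. Son, Ccnl1 and Ccnl2, with fold changes near 0, changed sign under some settings, and Srrm2 under 1. So did the inclusion of the Tra2b 276-nt exon (same sign in 9 of 13 settings), the Son 80-nt exon (11 of 13) and the Srrm1 130-nt exon (11 of 13). The Cdk12 acceptor choice and the Srrm1 and Srrm2 junctions rest on 78 to 266 reads per library. The Cdk12 donor choice rests on 31 to 110 reads, and the Cdk12 cassette form with fewest reads on 57 to 103.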
